A study of Mus musculus with 24 samples.

Results

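The mouse T cell receptor beta locus was described through its gene segments: all 53 genes named Trbv, Trbd, Trbj or Trbc among the 55401 genes of the count table, which are 35 variable (V), 2 diversity (D), 14 joining (J) and 2 constant (C) segments. The 41 segments with at least 100 counts over the 24 libraries (23 V, both D, all 14 J and both C) are reported. The other 12 are V segments that the annotation lists as pseudogenes, and 7 of them had 0 counts. Trbv21 lay just inside the limit with 134 counts in all, and Trbv12-3 just outside with 37. Each segment is given as its share of the summed counts of its class in a library.

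RNA came from CD4 and CD8 T cells sorted from the spleens of C57BL/6 mice aged 12 weeks and stimulated in culture for 2 days with antibodies against CD3 and CD28, and poly(A) RNA was sequenced. For each cell type there were 4 libraries from wild type cells (CD4.Cre-.Pou2af1fl/fl), 4 from heterozygotes (CD4.Cre+.Pou2af1fl/+) and 4 from knockouts (CD4.Cre+.Pou2af1fl/fl). All mice carried at least 1 floxed allele of Pou2af1, a transcriptional coactivator of octamer-binding factors, and Cre was driven by Cd4 regulatory sequence, so deletion is aimed at T cells. Cre was present in heterozygotes and knockouts but not in wild type cells, so Cre and the loss of Pou2af1 cannot be told apart in comparisons with wild type. The labels do not name the mouse behind each replicate number, so p-values measure the spread between these libraries, part of which may be technical.

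A T cell receptor beta chain gene is assembled in the thymus by joining 1 V, 1 D and 1 J segment, after which RNA splicing attaches a C segment. Which V segment is used sets most of the chain's framework and the loops that touch the presenting MHC molecule, while the join of V, D and J makes the loop that mostly touches the peptide. CD4 T cells recognise peptides on MHC class II and CD8 T cells on MHC class I. Trbd1 can join J segments of either cluster, whereas Trbd2 lies downstream of the first cluster and joins the Trbj2 segments. Most V segments lie upstream in the same orientation, and Trbv31 lies downstream of the C segments in the opposite orientation and joins by inversion. Assembly of the beta chain precedes the stage at which Cd4-driven Cre is usually active.

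The sequences below show what distinguishes the segments that the results turn on, read 5′ to 3′ from GENCODE M21 transcripts of GRCm38, whose coordinates equal those of the count table. For the 12 V segments whose CD4 and CD8 libraries did not overlap, the last 60 bases are given, since this end enters the join. Capitals mark the last TGT followed by G. Such a TGT is normally the codon of the conserved cysteine at the start of the joining loop, although the reading frame was not checked here, and Trbv1 has none in this window. In Trbv23 the marked TGT is out of register with that of Trbv26, whose end is similar, so it may not be this codon. The first 5 took a larger share in CD8 libraries and the following 7 in CD4 libraries. Of all 13288 genes tested, 4.63% lay without overlap higher in CD8 and 5.44% without overlap lower, with segments taken as shares and other genes as counts scaled to library size.
Trbv12-1 (chr6:41114008-41114067, + strand): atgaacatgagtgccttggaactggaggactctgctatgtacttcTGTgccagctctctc
Trbv12-2 (chr6:41119305-41119364, + strand): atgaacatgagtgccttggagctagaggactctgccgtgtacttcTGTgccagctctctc
Trbv14 (chr6:41135557-41135616, + strand): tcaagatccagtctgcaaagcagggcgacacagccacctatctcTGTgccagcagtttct
Trbv17 (chr6:41163497-41163556, + strand): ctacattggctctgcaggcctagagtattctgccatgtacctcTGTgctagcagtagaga
Trbv29 (chr6:41271822-41271881, + strand): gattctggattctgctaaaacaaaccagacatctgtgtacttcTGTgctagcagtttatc
Trbv1 (chr6:40891826-40891885, + strand): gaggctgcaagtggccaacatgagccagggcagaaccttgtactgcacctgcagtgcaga
Trbv2 (chr6:41047936-41047995, + strand): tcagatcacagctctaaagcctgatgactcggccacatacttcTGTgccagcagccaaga
Trbv3 (chr6:41048769-41048828, + strand): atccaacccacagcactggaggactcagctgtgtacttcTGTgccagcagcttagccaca
Trbv20 (chr6:41188918-41188977, + strand): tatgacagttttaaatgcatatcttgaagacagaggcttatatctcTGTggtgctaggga
Trbv23 (chr6:41216467-41216526, + strand): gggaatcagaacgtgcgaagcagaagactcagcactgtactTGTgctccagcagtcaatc
Trbv26 (chr6:41227934-41227993, + strand): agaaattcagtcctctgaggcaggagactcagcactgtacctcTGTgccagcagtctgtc
Trbv31 (chr6:41557693-41557752, - strand): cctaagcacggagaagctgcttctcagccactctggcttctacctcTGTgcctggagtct

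Both D segments are short and rich in G, and are shown because they are the whole of their class.
Trbd1 (chr6:41533201-41533212, + strand): gggacagggggc
Trbd2 (chr6:41542163-41542176, + strand): gggactgggggggc
Of the 14 J segments, 11 hold the run TTTGGNNNNGGN or TTCGGNNNNGGN (searched on the sense strand), which encodes the phenylalanine-glycine-any-glycine motif common in working J segments. The 3 most used J segments per base of length are shown first, with the motif in capitals, and then the 3 in which the run was not found, 1 of which, Trbj2-6, is annotated as a pseudogene. Trbj1-6 and Trbj1-7 are annotated as J genes. Lack of the run alone does not mark a segment as not working, nor does the annotation show that one works. In the sums below, Trbj1-7 was grouped with Trbj2-6 as nonfunctional.
Trbj2-1 (chr6:41542754-41542803, + strand): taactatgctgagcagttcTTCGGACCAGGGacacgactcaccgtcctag
Trbj1-4 (chr6:41534811-41534861, + strand): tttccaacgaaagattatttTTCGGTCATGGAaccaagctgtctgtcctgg
Trbj1-1 (chr6:41533864-41533911, + strand): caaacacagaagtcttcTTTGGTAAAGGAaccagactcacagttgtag
Trbj1-6 (chr6:41535554-41535606, + strand): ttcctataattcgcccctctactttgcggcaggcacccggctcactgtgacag
Trbj1-7 (chr6:41535642-41535687, + strand): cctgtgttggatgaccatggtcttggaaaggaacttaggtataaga
Trbj2-6 (chr6:41543598-41543645, + strand): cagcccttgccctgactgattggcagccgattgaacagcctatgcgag

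Libraries held 11944120 to 21760793 gene counts, of which beta segments made up 0.0593% to 0.103%. A library gave 3122 to 6881 V counts (median 4761), 251 to 654 J counts (median 427), 80 to 138 D counts (median 101.5) and 4042 to 7889 C counts (median 5587). V and C shares therefore rest on far more counts than J and D shares. Counts on a segment do not say whether the transcript was a complete in-frame rearrangement or a germline transcript, nor which alleles it came from. Cd4 averaged 476 to 509 CPM, which is a count over its library total in megacounts, in the 3 CD4 groups and 0.559 to 0.904 CPM in the CD8 groups, and Cd8a averaged 657 to 735 CPM in CD8 and 0.219 to 0.372 CPM in CD4. Pou2af1 libraries ran from 28.7 to 50.1 CPM in CD4 wild type, 15.6 to 24.6 CPM in heterozygotes and 1.30 to 3.86 CPM in knockouts. In CD8 the corresponding ranges were 22.3 to 34.6, 13.7 to 16.6 and 0.758 to 2.41 CPM, so the genotype groups did not overlap. By Xist and Y-linked genes, 2 of 4 heterozygote libraries but 1 of 4 wild type and 1 of 4 knockout libraries of each cell type came from females, and the part of sex in the genotype comparisons was not tested.

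Use of V segments was uneven over the 24 libraries. Per base of annotated segment length, a scaling that adjusts for that length alone, Trbv3 was used most, at 11.9% of the length-scaled V total. Trbv13-2 followed with 8.91%, Trbv12-2 with 8.51% and Trbv29 with 7.36%. This order is a mean over both cell types, which differed. Trbv3 ranked 1 in CD4 at 14.2% but 3 in CD8 at 9.48%, after Trbv29 (11.2%) and Trbv12-2 (11.1%). Trbv29 ranked 14 in CD4, at 3.56%. Trbv19, ranked 2 by plain share at 9.41%, was ranked 5 per length at 6.69%. Trbv2 moved from rank 6 at 5.76% to rank 14 at 4.16%, so the order depends in part on the annotated lengths. Trbv21 was lowest, at 0.131% per length, and Trbv30, Trbv5, Trbv4, Trbv24 and Trbv23 also stayed below 1%. Trbv24 is annotated as a pseudogene, and its shares ran from 0.0899% to 0.755% of V counts. Trbv4 and Trbv5 overlap another annotated gene on the same strand, 5830405F06Rik, which holds 72.1% and 77.4% of their 50-base windows. A counter that sets aside reads on more than 1 gene loses those reads, so the shares of Trbv4 and Trbv5 are uncertain.

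Related V segments shared few exact stretches of sequence. Trbv13-2 and Trbv13-3 are 91.4% identical and Trbv12-1 and Trbv12-2 are 88.9% identical over the compared stretch, yet Trbv12-1 shared no 50-base window with another gene and Trbv13-2 shared 0.34%. Trbv12-2 shared 1.19% of its windows, with Trbv12-3. How far the reads of related segments were told apart was not tested, and the read length is not given. The number of V segments in effective use, the inverse of the summed squared shares, was 13.1 ± 0.315 in CD4 and 14.2 ± 0.226 in CD8 libraries (SD, n = 12 each), with ranges of 12.4 to 13.5 and 13.9 to 14.5 that did not overlap.

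J segments were led per length by Trbj2-1 at 12.2%, Trbj1-4 at 11.9% and Trbj1-1 at 11.4%, which lie within the spread of the libraries. Trbj2-5 was lowest at 3.21%. Trbj1-7, in which the motif run was not found, held 6.22% of J counts, and the pseudogene Trbj2-6 held 4.92%. The Trbj1 cluster as a whole made up 57.4% ± 2.99 of J counts in CD4 and 57.3% ± 2.35 in CD8 libraries (SD, n = 12 each). Of the C counts 61.7% fell on Trbc2 and 38.3% on Trbc1. Both C segments encode nearly the same constant region, and at a window of 50 bases 41.1% of Trbc1 and 44.0% of Trbc2 is shared between them. At a window of 100 bases 28.7% and 30.9% is shared. Reads that lie wholly in shared stretches map to both and count for neither. How many did so is not known, since the read length is not given. Of the D counts 62.2% fell on Trbd2 and 37.8% on Trbd1.

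Most V segments took a different share in CD8 than in CD4 cells, whereas no J, D or C segment passed the test. Of the 40 segments tested, 19 differed in share between CD8 and CD4 over the 3 genotypes, 8 higher and 11 lower in CD8 (edgeR's quasi-likelihood test, Benjamini-Hochberg adjusted over 13288 genes). All 19 were V segments: 19 of 22 tested V segments passed, against 0 of 14 J, 0 of 2 D and 0 of 2 C segments. In the same fit 54.6% of all genes passed, 26.9% higher and 27.7% lower, so a call alone is common between these cell types. The median absolute log2 change was 0.64 for V segments, 0.21 for all genes tested and 0.04 for J segments.

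**Figure D1:**
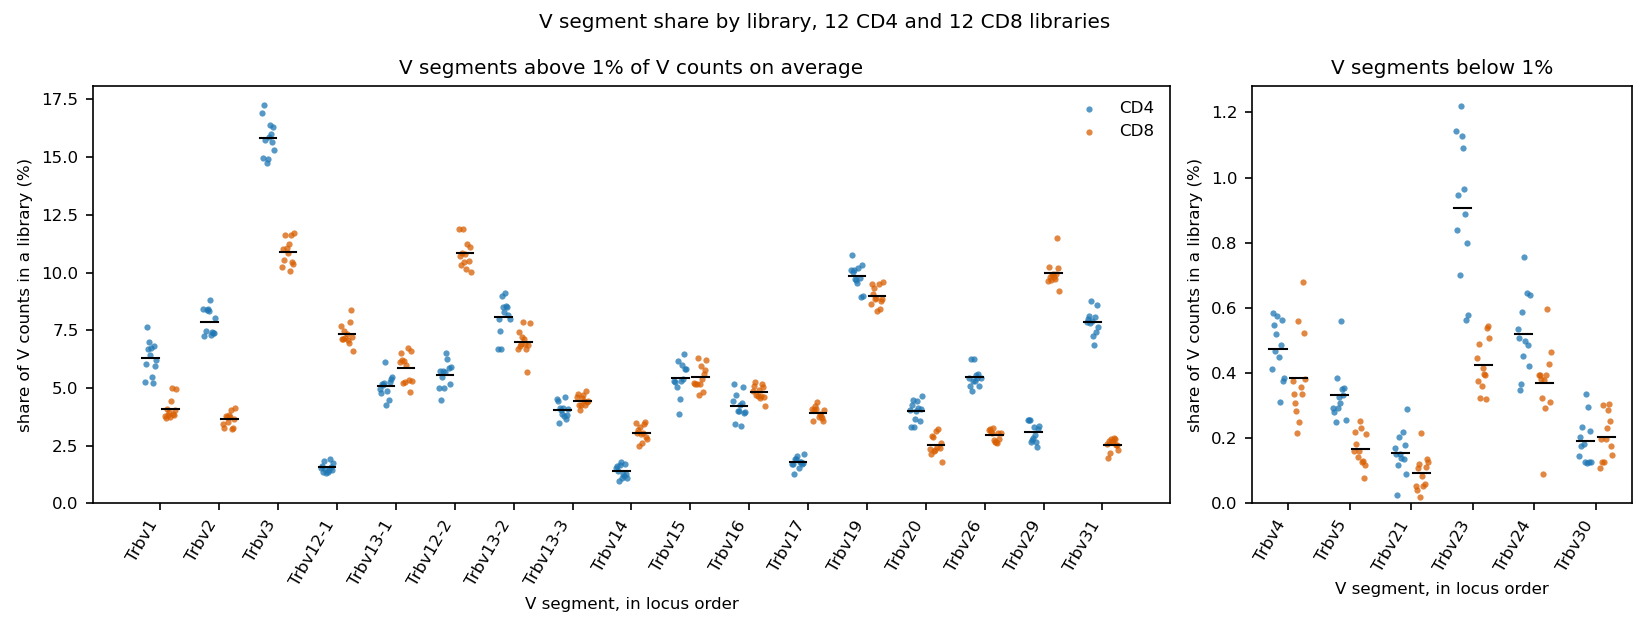
Share of V counts (y axis, percent) taken by each V segment (x axis, in locus order) in each of 12 CD4 libraries (blue points) and 12 CD8 libraries (orange points), with black bars at the means and the 6 least used segments on their own scale. Points of the cell types separate completely for Trbv12-1, Trbv12-2, Trbv14, Trbv17 and Trbv29 (CD8 higher) and for Trbv1, Trbv2, Trbv3, Trbv20, Trbv23, Trbv26 and Trbv31 (CD4 higher).

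The segments of greater use in CD8 were led by the Trbv12 pair and Trbv29. Trbv12-1 took 1.30% to 1.94% of V counts (median 1.49%) in CD4 libraries and 6.59% to 8.37% (median 7.19%) in CD8 libraries. Its share was 4.73-fold higher in CD8, a log2 change of 2.24 (SE 0.0575, adjusted p = 1.15e-18), which is the largest change of any segment tested. Trbv29 ran from 2.45% to 3.60% (median 3.09%) in CD4 and from 9.21% to 11.5% (median 9.85%) in CD8, a log2 change of 1.70 (SE 0.0599, adjusted p = 3.73e-16). For both segments every CD8 library lay above every CD4 library. Trbv12-2, the near relative of Trbv12-1, rose 1.95-fold, from 4.46% to 6.50% (median 5.70%) in CD4 to 10.04% to 11.9% (median 10.8%) in CD8 (log2 change 0.96, SE 0.0514, adjusted p = 7.21e-13). The Trbv12 pair together made up 7.12% ± 0.699 of V counts in CD4 and 18.2% ± 0.879 in CD8 libraries (SD, n = 12 each).

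Trbv14 and Trbv17, both little used in CD4 cells, showed the same fold in CD8. Trbv14 took 0.969% to 1.78% (median 1.34%) of CD4 and 2.46% to 3.54% (median 3.06%) of CD8 V counts. Trbv17 took 1.27% to 2.15% (median 1.75%) and 3.56% to 4.41% (median 3.95%). Each was 2.22-fold higher in CD8, with log2 changes of 1.15 (SE 0.101, adjusted p = 2.99e-09) and 1.15 (SE 0.0673, adjusted p = 3.49e-12), and neither overlapped between cell types. The other 3 segments called higher moved by far less, and their ranges overlapped. Trbv13-1 ran from 4.25% to 6.11% (median 5.16%) in CD4 and 4.83% to 6.72% (median 6.04%) in CD8 (log2 change 0.20, SE 0.0646, adjusted p = 0.0121). Trbv16 ran from 3.33% to 5.16% (median 4.14%) and 4.204% to 5.26% (median 4.78%), with an adjusted p of 0.0145. Trbv13-3 ran from 3.49% to 4.61% (median 4.06%) and 4.05% to 4.85% (median 4.43%), with an adjusted p of 0.0257. None of these 3 passed in wild type or knockout libraries taken alone. The 5 segments without overlap together held 13.3% of V counts in CD4 and 35.1% in CD8.

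Among the segments of lower use in CD8, Trbv31, the inverted segment at the far end of the locus, changed most. It took 6.85% to 8.77% (median 7.89%) of V counts in CD4 and 1.96% to 2.81% (median 2.61%) in CD8 libraries, 3.10-fold less (log2 change -1.63, SE 0.0555, adjusted p = 2.03e-16). Trbv2 took 7.25% to 8.81% (median 7.73%) in CD4 and 3.21% to 4.12% (median 3.70%) in CD8, a log2 change of -1.12 (SE 0.0507, adjusted p = 4.29e-14). Neither overlapped between cell types. Trbv26 fell from 4.84% to 6.26% (median 5.43%) to 2.60% to 3.27% (median 3.05%), with a log2 change of -0.89 (SE 0.0537, adjusted p = 5.59e-12). Trbv3, the most used V segment of CD4 cells by plain share, held 14.8% to 17.3% (median 15.8%) in CD4 and 10.1% to 11.7% (median 10.9%) in CD8. The change of Trbv3 on the log2 scale was -0.54 (SE 0.0375, adjusted p = 6.03e-11), and again every CD4 library exceeded every CD8 library.

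Trbv1, at the opposite end of the locus, ran from 5.22% to 7.65% (median 6.33%) in CD4 and 3.67% to 5.01% (median 3.90%) in CD8 (log2 change -0.62, SE 0.0697, adjusted p = 1.29e-07). Trbv20 ran from 3.31% to 4.64% (median 4.06%) in CD4 and 1.80% to 3.23% (median 2.42%) in CD8 (log2 change -0.65, SE 0.0912, adjusted p = 2.96e-06). Trbv23, a little used segment, ran from 0.562% to 1.22% (median 0.918%) and 0.320% to 0.544% (median 0.406%), with a log2 change of -1.07 and an adjusted p of 9.76e-08. The ranges of these 3 did not meet, although the gap for Trbv23 was narrow. Trbv5, which shares most of its sequence with an overlapping gene, ran from 0.249% to 0.560% (median 0.317%) in CD4 and 0.0790% to 0.253% (median 0.161%) in CD8 (log2 change -1.004, adjusted p = 2.76e-05), and its ranges met at their edges. Trbv13-2 (log2 change -0.20, adjusted p = 0.00106), Trbv19 (-0.13, adjusted p = 0.00413) and the pseudogene Trbv24 (-0.49, adjusted p = 0.0199) were also called lower, with overlapping ranges, and none of these 3 passed in wild type or knockout libraries taken alone. The 7 segments without overlap held 48.2% of V counts in CD4 and 27.1% in CD8.

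Along the locus Trbv29, higher in CD8, lies between Trbv26 and Trbv31, which were both lower. The Trbv13 family as a whole made up 17.2% ± 0.831 of V counts in CD4 and 17.3% ± 0.919 in CD8 (SD, n = 12 each), its members moving by small amounts in both directions. The V segments that did not pass were Trbv15, with means of 5.41% in CD4 and 5.46% in CD8, Trbv4 (log2 change -0.32, adjusted p = 0.0967) and Trbv30 (log2 change 0.08, adjusted p = 0.773). Trbv21 had too few counts to be tested, with means of 0.156% and 0.0939%. Shares within a class sum to 100, so a gain of one segment lowers the others. When each segment was set against the rest of its class instead, the same 19 segments passed.

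In each genotype taken alone the large changes were of like size. The log2 change of Trbv12-1 was 2.21 in wild type, 2.35 in heterozygote and 2.17 in knockout libraries. For Trbv29 the corresponding values were 1.56, 1.74 and 1.81, and for Trbv31 they were -1.75, -1.49 and -1.65. In wild type libraries alone 14 segments passed (29.9% of all genes), 13 of them among the 19 together with Trbv4. In heterozygote libraries 15 passed (39.5% of all genes) and in knockout libraries 11 (15.3%), all among the 19. Trbv23 spread more between genotypes than the others, with -1.14 in wild type, -1.49 in heterozygotes and -0.58 in knockouts, and did not pass in knockout libraries alone.

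**Figure D2:**
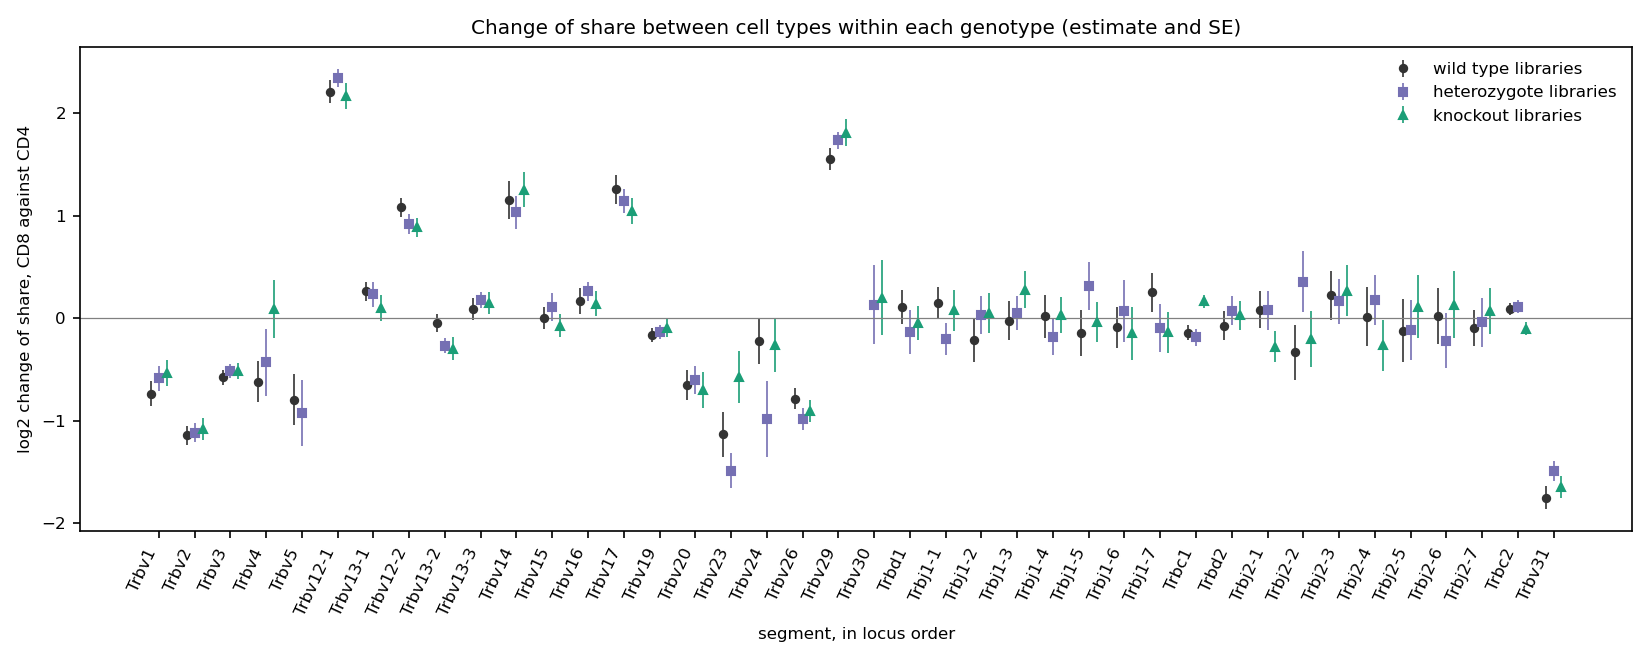
Log2 change of share in CD8 against CD4 (y axis, estimate with SE) for each tested segment in locus order (x axis), computed within wild type (black circles), heterozygote (purple squares) and knockout (green triangles) libraries, 4 against 4. The V segments spread from about the -1.75 of Trbv31 to the 2.35 of Trbv12-1. Genotypes lie close together for the largest changes but apart for some little used segments, as Trbv23 at -1.49 in heterozygotes and -0.58 in knockouts. J, D and C segments spread less, from -0.33 (wild type) to 0.35 (heterozygotes), both for Trbj2-2. Trbv30 in wild type and Trbv5 in knockout were not tested.

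The J segments gave a different picture. The most used, Trbj2-1, took 8.31% to 15.9% (median 13.0%) of J counts in CD4 and 10.2% to 13.95% (median 12.1%) in CD8 libraries, a log2 change of -0.04 (SE 0.0935, adjusted p = 0.747). Trbj1-4 took 9.80% to 15.9% (median 12.5%) and 8.30% to 15.3% (median 12.6%), with a log2 change of -0.04 and an adjusted p of 0.742. Trbj1-1 took 7.97% to 13.8% (median 11.3%) and 8.95% to 12.8% (median 10.9%), with a log2 change of 0.01 and an adjusted p of 0.969. The CD4 and CD8 ranges of all 14 J segments overlapped. The J segment of largest change was Trbj2-3, at 0.22 on the log2 scale with an interval of 2 SE from -0.05 to 0.48 (adjusted p = 0.168). Over the 14 J segments the intervals of 2 SE reached from -0.39 for Trbj2-5 to 0.48 for Trbj2-3.

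The C and D segments also overlapped. Trbc1 took 33.9% to 45.4% (median 37.5%) of C counts in CD4 and 34.4% to 42.0% (median 36.2%) in CD8, a log2 change of -0.05 (SE 0.0444, adjusted p = 0.311). Trbc2, the remainder of the class, took 54.6% to 66.1% (median 62.5%) and 58.0% to 65.6% (median 63.8%), with a log2 change of 0.03 (adjusted p = 0.386). Trbd1 took 27.7% to 44.4% (median 38.8%) of D counts in CD4 and 25.4% to 50% (median 37.5%) in CD8, with a log2 change of -0.03 (SE 0.0948, adjusted p = 0.837). Trbd2 changed by 0.01 (SE 0.066, adjusted p = 0.906), and its shares are those of Trbd1 taken from 100. The D class rests on the fewest counts, and its libraries spread widest. Trbd1 and Trbd2 are only 12 and 14 bases long, and rearranged and germline transcripts were not told apart. Shares of D counts therefore need not reflect D use in receptors.

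**Figure D3:**
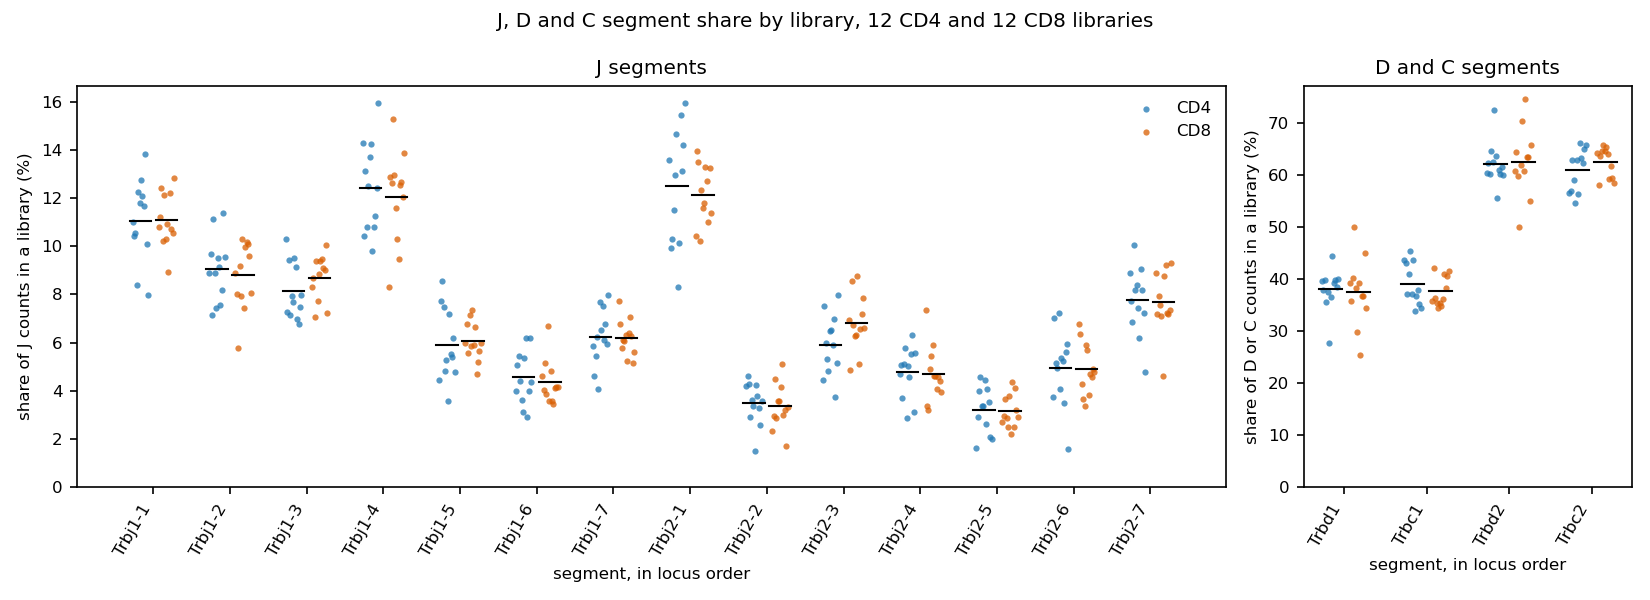
Share of the counts of its class (y axis, percent) taken by each J segment (left) and each D and C segment (right) in each of 12 CD4 libraries (blue points) and 12 CD8 libraries (orange points), with black bars at the means. The CD4 and CD8 points of every segment shown overlap, as in Trbj2-1 from 8.31% to 15.9% in CD4 and from 10.2% to 13.95% in CD8.

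The contrast between V and J also held for whole profiles. The difference between 2 profiles was taken as the percentage of class counts that would have to move between segments to make them equal. The mean V profiles of CD8 and CD4 differed by 23.6% of V counts. A CD4 and a CD8 library differed by 19.8% to 29.5%, whereas libraries of the same cell type differed by 3.44% to 7.42% in CD4 and 2.43% to 7.80% in CD8. For J the mean profiles of the cell types differed by 1.66%. A CD4 and a CD8 library differed by 6.13% to 16.4% in J use, within the 4.30% to 17.2% seen between libraries of the same cell type. J counts include those on Trbj1-7 and the pseudogene Trbj2-6, together a mean of 11.1%. Rearranged and germline transcripts were not told apart, so similar J counts need not mean similar J use in receptors. Across segments, mean shares in CD4 and CD8 were correlated with Pearson's r of 0.66 and Spearman's rho of 0.70 for 23 V segments, and with 0.99 and 0.99 for 14 J segments. These describe segments that share libraries and class totals and are not independent points.

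The amount of beta chain RNA also differed between the cell types, which shares leave out. Summed V counts were 278 ± 20.6 CPM in CD4 and 384 ± 37.8 CPM in CD8 libraries, and summed C counts 355 ± 40.8 and 465 ± 60.4 CPM (SD, n = 12 each). Summed J counts were 26.5 ± 2.87 and 34.7 ± 5.19 CPM, and summed D counts 6.82 ± 0.650 and 7.19 ± 0.931 CPM. The ranges of each class overlapped between cell types. In bulk samples a larger share of cells with such a transcript and more RNA per cell cannot be told apart. When segments were tested as levels against the whole library, and not as shares, 28 segments passed, 23 higher and 5 lower in CD8, beside 54.6% of all genes. Those were 12 V, 9 J and 2 C segments higher, and Trbv2, Trbv5, Trbv23, Trbv26 and Trbv31 lower. Both C segments rose in level, Trbc1 by 0.34 and Trbc2 by 0.43 on the log2 scale, and Trbv13-2 and Trbv19 turned from lower in share to higher in level, by 0.26 and 0.34.

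**Figure D4:**
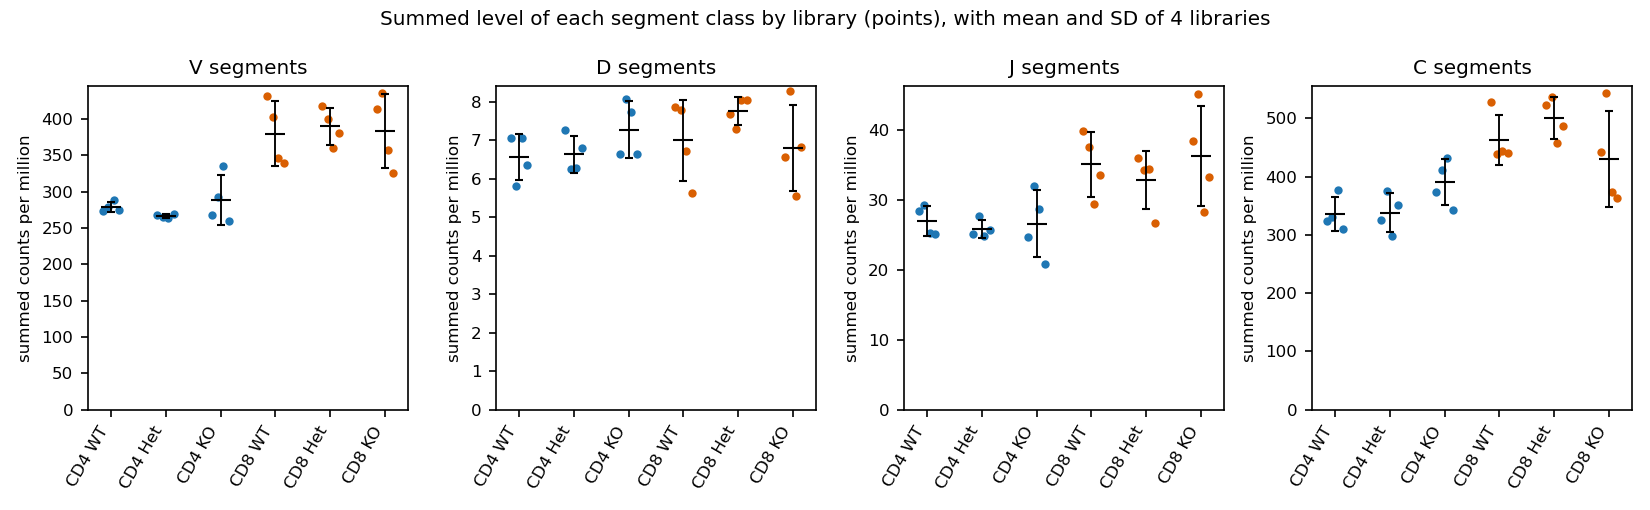
Summed CPM (y axis, from 0) of all V, D, J and C segments in each library (points) of the 6 groups (x axis), with the mean and SD of the 4 libraries of a group in black. V, J and C totals are higher in the CD8 groups (orange) than in the CD4 groups (blue), as for V with 278 against 384 CPM over all genotypes, and D totals are close.

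Of 12 genes chosen for their part in the receptor complex, its proximal signalling or rearrangement, 9 were tested as levels, and 5 were higher and 2 lower in CD8. Of all genes tested in this comparison 26.9% were higher and 27.7% lower. The CD3 chains, which carry the receptor's signal into the cell, were all higher: Cd3g by 0.56 (SE 0.0609, adjusted p = 7.98e-08), Cd3d by 0.34 (SE 0.0907, adjusted p = 0.0028) and Cd3e by 0.23 (SE 0.0565, adjusted p = 0.00142) on the log2 scale. The kinase Lck rose by 0.13 and the adaptor Lat by 0.23. Cd247, the zeta chain of the complex, was lower by a log2 change of -0.18, and Zap70, the kinase that binds it, by -0.54 (adjusted p = 2.77e-07). Trac, the constant gene of the alpha chain, had a log2 change of -0.03 (SE 0.0457, adjusted p = 0.614). Dntt, which adds bases at the joins in the thymus, did not pass (log2 change 0.71, SE 0.644, adjusted p = 0.368).

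Markers of other cells were low but not equal in the 2 cell types. The 6 genes of a gamma delta T cell list summed to 0.737 to 2.30 CPM in CD4 and 2.41 to 9.68 CPM in CD8 libraries, and the 2 of them tested were higher in CD8, as were 26.9% of all genes. The 6 genes of a B cell list summed to 7.37 to 31.8 CPM in CD4 and 6.61 to 22.7 CPM in CD8. Zbtb16, which marks innate-like T cells of restricted V use, was 0 to 0.0750 CPM in CD4 and 0 to 0.144 CPM in CD8. The part of any of these cells in the V shares was not tested.

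Pou2af1 genotype left segment use without a call. In CD4 cells 0 of 39 tested segments differed in share between knockout and wild type (0.0708% of all genes passed), between heterozygote and wild type (0.0865%) or between knockout and heterozygote (0.0157%). In CD8 cells 0 of 40 differed in the same comparisons, in which 0.0634%, 0.0634% and 0.0159% of all genes passed. The tool was edgeR, and DESeq2 also called 0 in each. At an unadjusted p under 0.05, edgeR gave 2, 1 and 1 segments in CD4 and 0, 0 and 2 in CD8. Trbv21 was not tested in either cell type and Trbv30 not in CD4, for low counts. The comparisons that use the same wild type, heterozygote or knockout libraries share their values and are not independent.

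**Figure D5:**
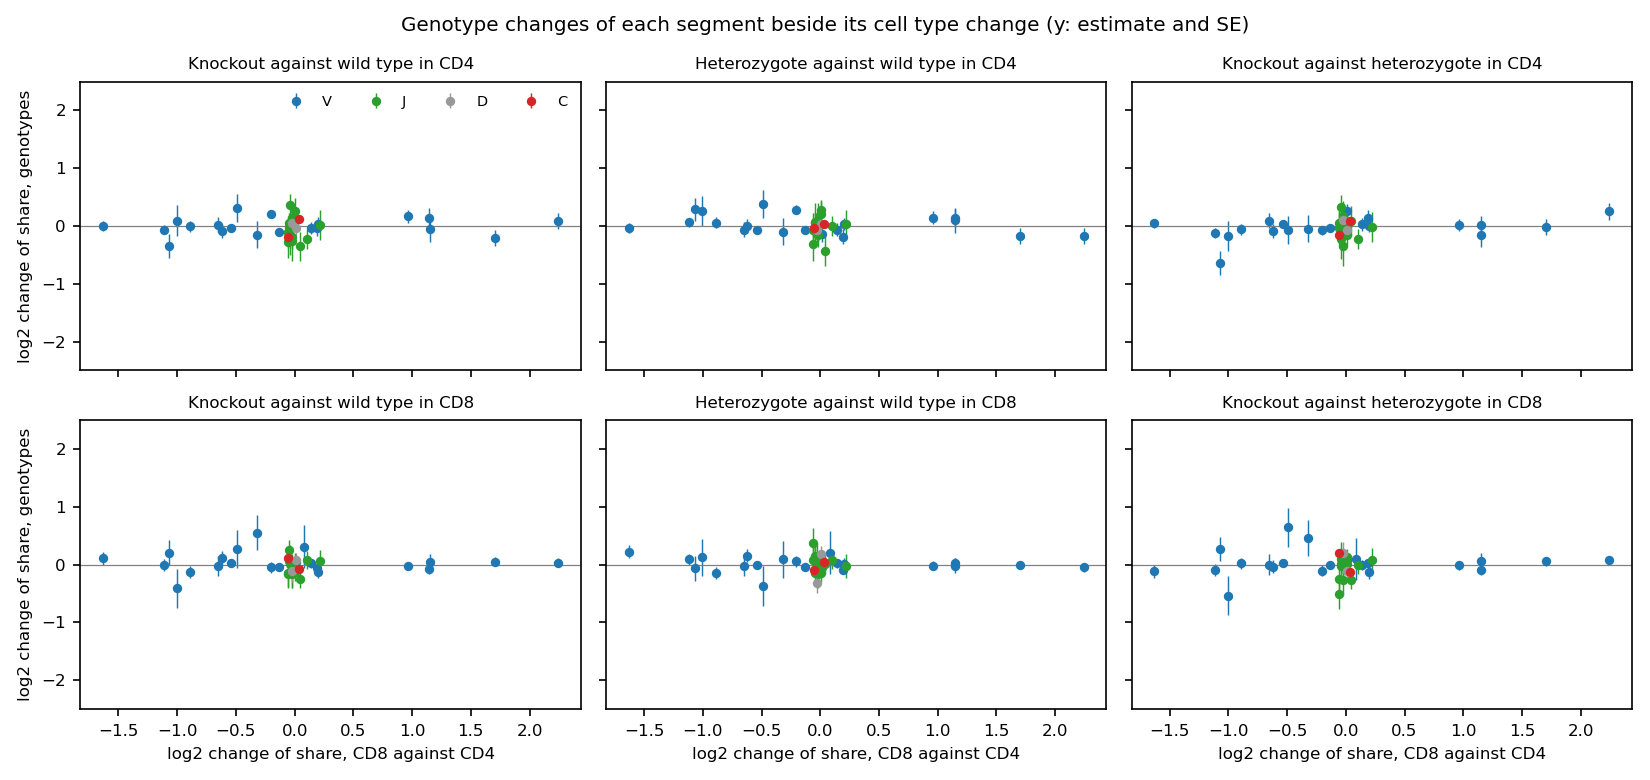
Log2 change of share between genotypes (y axis, estimate with SE) for every tested V (blue), J (green), D (grey) and C (red) segment, set against its change between CD8 and CD4 (x axis), in 6 panels for the 3 genotype comparisons in CD4 (top) and CD8 (bottom). The points lie in a band about 0 at all x values, from -0.64 for Trbv23 to 0.64 for Trbv24, while the x axis runs from -1.63 to 2.24.

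The segments of lowest p in CD4 cells were Trbv13-2, Trbc1 and Trbv23. Trbv13-2 took 6.69%, 7.99%, 7.45% and 6.68% of V counts in wild type libraries 1 to 4, 8.998%, 8.49%, 8.31% and 9.12% in heterozygotes, and 8.54%, 8.49%, 8.18% and 7.98% in knockouts. The heterozygote libraries all lay above those of wild type, and the lowest knockout library lay just below the highest wild type library. Its log2 change was 0.28 for heterozygotes (SE 0.0758, adjusted p = 0.33) and 0.21 for knockouts (SE 0.0759, adjusted p = 1) against wild type. In CD8 cells the groups overlapped, with 5.67% to 7.82% in knockout and 6.67% to 7.41% in wild type libraries. Trbj1-1 was the other segment whose heterozygote and wild type CD4 libraries did not overlap, at 11.8% to 12.8% and 8.41% to 11.01% of J counts. Of all genes tested, 3.51% lay without overlap higher in CD4 heterozygotes than in wild type.

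Trbv23 took 0.889%, 0.562%, 0.798% and 0.577% of V counts in CD4 knockout libraries and 1.22%, 1.13%, 1.09% and 0.965% in heterozygotes, which did not overlap. Of all genes tested, 1.42% lay without overlap lower in CD4 knockouts than in heterozygotes. Wild type libraries overlapped both, at 1.14%, 0.840%, 0.947% and 0.702%. The log2 change of Trbv23 in knockout against heterozygote was -0.64 (SE 0.207, adjusted p = 1). Other segments named by lowest p in CD4 were Trbj2-1 (0.37 for knockout against wild type), Trbv24 (0.39) and Trbj1-5 (-0.44) for heterozygote against wild type, and Trbv15 (0.26 for knockout against heterozygote), with SEs of 0.129 to 0.25. Trbv16 had -0.18 for heterozygote against wild type, with an adjusted p of 0.758.

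Trbc1, with Trbc2 as its complement, had knockout values of opposite sign in the 2 cell types. In CD4 it took 43.6%, 43.1%, 37.1% and 41.0% of C counts in wild type libraries, 45.4%, 37.1%, 43.7% and 33.9% in heterozygotes, and 36.8%, 37.8%, 35.1% and 34.3% in knockouts. In CD8 it took 35.8%, 42.0%, 36.3% and 35.4% in wild type, 34.4%, 35.4%, 34.7% and 36.1% in heterozygotes, and 40.9%, 38.3%, 40.6% and 41.5% in knockouts. The CD8 knockout libraries lay above all CD8 heterozygote libraries, and 1 wild type library lay above them all. Of all genes tested, 1.43% lay without overlap higher in CD8 knockouts than in heterozygotes. The log2 change of knockout against wild type was -0.19 in CD4 (SE 0.0888, adjusted p = 1) and 0.11 in CD8 (SE 0.0611, adjusted p = 0.986), and that of knockout against heterozygote in CD8 was 0.20 (SE 0.0611, adjusted p = 0.638). The difference of the knockout effect between cell types was 0.30 for Trbc1 (SE 0.109, unadjusted p = 0.0109, adjusted p = 1) and -0.19 for Trbc2 (SE 0.0789, adjusted p = 1). The opposite signs of Trbc1 were not there when it was tested as a level against the whole library, with a knockout against wild type log2 change of 0.035 in CD4 and 0.016 in CD8 and a difference of -0.027. The log2 change of its level between CD8 knockouts and heterozygotes was -0.0068.

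In CD8 cells Trbc2, Trbj2-2 and Trbj2-4 had knockout libraries all below those of heterozygotes, as had 1.32% of all genes, with log2 changes of -0.12 for Trbc2 (SE 0.0501, adjusted p = 0.697) and -0.51 for Trbj2-2 (SE 0.262, adjusted p = 0.753). The other segments named by lowest p in CD8 were Trbv4 (0.56) and Trbj1-5 (-0.25) for knockout against wild type, Trbv31 (0.22), Trbj2-2 (0.37), Trbd1 (-0.31) and Trbv26 (-0.15) for heterozygote against wild type, and Trbv24 (0.64) for knockout against heterozygote. None of these passed.

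The precision of the genotype comparisons differed by class. Among V segments the median SE of the log2 change was 0.127 in CD4 and 0.103 in CD8 for knockout against wild type, and among J segments it was 0.236 and 0.193. Mean V profiles of genotypes differed by 1.61% to 3.47% of V counts within a cell type, and mean J profiles by 3.44% to 6.39%. Single libraries of the same group differed by 3.07% to 7.80% in V use and by 4.30% to 16.2% in J use. Means of 4 libraries vary less than single libraries, so these distances cannot be set directly against those between genotypes.

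The genotype effects were also compared between the cell types. For knockout against wild type, 0 of 40 segments passed the test of a difference between CD8 and CD4, where 0.00753% of all genes passed and 3 segments had an unadjusted p under 0.05. For heterozygote against wild type, 0 passed, 0.00753% of all genes passed and 0 segments had an unadjusted p under 0.05, and DESeq2 called 0 in both tests. Besides Trbc1 and Trbc2, the segments of lowest p were Trbv23 (0.56) and Trbv13-2 (-0.25) for the knockout, and Trbv31 (0.26), Trbj2-2 (0.69), Trbv13-2 (-0.22) and Trbv24 (-0.75) for the heterozygote, each as a difference of log2 changes with an adjusted p of 1. The SEs of these differences ran from 0.079 to 0.545 over the segments.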

How the data were processed

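Poly(A) RNA of 24 libraries was analysed from the raw gene counts the authors deposited, which are whole numbers per gene and library. Per the submitters' processing notes, Trimmomatic 0.35, STAR 2.7.1a, DESeq2 1.26.0 and the build GRCm38 were used. Which annotation release, read length and strand setting were used is not given in the sources used here. Reads of antisense partners may therefore be mixed. The table's summary lines, 31.6% to 35.0% of entries, stayed out of all totals. Multimapping reads, 17.6% to 18.6%, and ambiguous reads, 1.02% to 1.09%, count for no gene in the deposited counts, which lowers segments with shared sequence. The deposited normalized values were not used.

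Groups and replicate numbers came from the labels. The members, lists and tests were chosen with earlier results of these data known. Counts were fitted with edgeR 4.0.16 under R 4.3.3 (filterByExpr, count of 10), for 13288 genes over 24 libraries, 12719 in CD4 and 12612 in CD8. Each segment's offset was the log summed count of its class, so its log2 change is one of share, and other genes used TMM sizes. The quasi-likelihood test was 2-sided, with calls at a Benjamini-Hochberg adjusted p under 0.05 over all genes tested. Genotypes were compared within a cell type over its 12 libraries, and cell types over all 24. Each SE was taken as the log2 change divided by the square root of the F statistic. Alternatives were levels on TMM sizes, odds within the class, DESeq2 1.42.0, no filter, a replicate block, subsets of replicates or genotypes, and leaving out each library. The script was tested on simulated data.

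Named segments were those called between cell types (up to 8 each way in full), both C and D segments, the 3 most used V and J segments per length, and the 2 of lowest p each way where a genotype comparison called none. The 3 segments called lower beyond the first 8 are given more briefly. A count of 3 in a library, taken as the floor, was 0.0436% to 0.0961% of V counts and 0.459% to 1.20% of J counts. Such floors cover counting error only. Libraries of a group all differed by more than sampling noise (in 36 pairs, a chi-square of at least 2.62 per degree of freedom). The correlation of deviations from the group mean was over 0.1 for every same-numbered pair of CD4 and CD8 libraries of a genotype (0.149 to 0.451) and of CD4 libraries of different genotypes (0.132 to 0.580), but ran from -0.225 to 0.402 among CD8 libraries. Pairs of different numbers ran from -0.427 to 0.369 between CD4 and CD8 libraries of a genotype. Among CD4 libraries they ran from -0.633 to 0.598, and among CD8 libraries from -0.453 to 0.537.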

Additional observations from a re-analysis of the deposited data

Results flagged for a closer look

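In groups of 4 libraries, 11 of 246 segment shares had 1 library far from the other 3, judged by the gap to its nearest neighbour over the whole range. Chance gives about 1 in 20, or 12.3 of 246, and Trbc1 and Trbc2 mirror each other. No explanation was tested for any of them. Among V segments in CD4, knockout library 4 had 8.01% Trbv2 (nearest 7.41%), heterozygote library 4 had 0.560% Trbv5 (nearest 0.326%), wild type library 2 had 10.8% Trbv19 (nearest 10.1%) and wild type library 4 had 2.66% Trbv29 (nearest 3.59%). In CD8, wild type library 4 had 6.29% Trbv15 (nearest 5.19%), knockout library 1 had 0.320% Trbv23 (nearest 0.507%) and heterozygote library 1 had 3.27% Trbv26 (nearest 2.73%). For J segments, CD8 knockout library 1 had 3.45% Trbj1-6 (nearest 4.13%) and CD8 knockout library 4 had 9.32% Trbj2-7 (nearest 7.37%). CD8 wild type library 2 had 42.0% Trbc1 (nearest 36.3%) and 58.0% Trbc2 (nearest 63.7%).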

How the results depend on the processing

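The 19 segments called between CD8 and CD4 were the same with odds within the class, DESeq2 and the replicate block, and the block called 0 segments in every genotype comparison, as did all other alternatives run. Leaving out 1 library gave 19 to 20 calls, Trbv4 being added without CD8 heterozygote or knockout library 2. No filter gave 16, replicates 1 and 2 alone 15, replicates 3 and 4 alone 15, and knockout libraries alone 11. Trbv12-1, Trbv12-2, Trbv14, Trbv17, Trbv26, Trbv29, Trbv2 and Trbv31 passed in all 34 alternatives, and Trbv5 in all 33 in which it was tested. Trbv13-1, Trbv13-2, Trbv13-3, Trbv16, Trbv19 and Trbv24 lost their calls in several subsets, Trbv13-2 with -0.05 (adjusted p = 0.702) in wild type and -0.30 (adjusted p = 0.0999) in knockout libraries alone. On levels, Trbv1, Trbv3, Trbv20 and Trbv24 no longer passed. Signs turned for Trbv13-2 to 0.26, Trbv19 to 0.34, Trbc1 to 0.34, Trbd1 to 0.039, Trbj2-1 to 0.35 and Trbj1-4 to 0.35. Segments not called as shares also changed sign, and the cause was not tested. Between cell types, knockout libraries alone gave Trbc1 0.16, Trbc2 -0.10 and Trbj1-4 0.033. Wild type libraries alone gave Trbd1 0.11, Trbd2 -0.072, Trbj2-1 0.081 and Trbj1-4 0.017, and heterozygotes alone Trbj2-1 0.076 and Trbj1-1 -0.20. Replicates 3 and 4 gave Trbj2-1 0.090, and replicates 1 and 2 gave Trbj1-1 -0.073. Leaving out 1 library gave Trbd1 -0.063 to 0.011, Trbd2 -0.0087 to 0.033, Trbj1-1 -0.030 to 0.053, Trbj1-4 -0.085 to 0.0059 and Trbj2-1 -0.081 to 0.0073. On levels Trbc1 turned to 0.035 for knockout against wild type in CD4, 0.071 for knockout against heterozygote in CD4, -0.0068 for the same in CD8, and -0.027 for the difference of knockout effects. Trbv24, for heterozygote against wild type in CD4, turned to -0.00092 with replicates 1 and 2. Depth limits J and D most: a J segment at the lowest library total rests on few counts.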
